A study of Mus musculus with 180 samples.

Results

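Glucocorticoid signalling was followed through 9 genes, 7 targets of the glucocorticoid receptor (Sgk1, Tsc22d3, Fkbp5, Zbtb16, Plin4, Cdkn1a and Hif3a) and both corticosteroid receptors (Nr3c1 and Nr3c2). They were taken by name from a count table of 54429 genes. The table holds 180 libraries from the brains of 30 male mice, and the title of the study names hippocampal neurons. Every mouse in all groups came from a cross of the Camk2a-cre line T29-1Stl/J to the Rpl22tm1.1Psam/J line, so that Cre driven by the Camk2a promoter gives forebrain excitatory neurons an HA-tagged ribosomal protein. Mice underwent contextual fear conditioning (CFC) or did not (NoCFC), and were then deprived of sleep (SD) or left to sleep (Sleep). There were 7 CFC SD, 8 CFC Sleep, 7 NoCFC SD and 8 NoCFC Sleep mice, and the length of the deprivation is not in the labels. Each mouse gave 6 libraries: RNA captured with the HA tag (Camk2a), RNA captured with an antibody to the phosphorylated form of ribosomal protein S6 (pS6), which rises in active neurons, and uncaptured RNA (Input), each from a cytosolic and a membrane fraction.

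Corticosterone, the main glucocorticoid of mice, binds 2 nuclear receptors in the brain. The mineralocorticoid receptor, encoded by Nr3c2 and abundant in hippocampus, binds it with high affinity and is largely occupied at rest, whereas the glucocorticoid receptor, encoded by Nr3c1, fills up when the hormone rises with stress or at the active phase of the day. The occupied receptor leaves its chaperone complex, enters the nucleus and raises or lowers transcription of its targets. Among those targets Sgk1 encodes a kinase that acts on ion channels and transporters, Tsc22d3 encodes the anti-inflammatory leucine zipper protein GILZ, and Fkbp5 encodes a co-chaperone that lowers the receptor's affinity for hormone. Zbtb16 encodes a zinc finger transcription factor, Plin4 a lipid droplet coat protein, Cdkn1a the cyclin-dependent kinase inhibitor p21, which p53 and neuronal activity also induce, and Hif3a a member of the hypoxia-inducible factor family.

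Total counts were between 11980405 and 26953695 per library, with a mean of 18838648. Levels are given as CPM, each count over its library's total after TMM scaling. The marker levels were set beside the labels. Camk2a averaged 2963 ± 266 CPM in cytosolic Camk2a libraries, against 1561 ± 204 CPM in cytosolic Input (SD, n = 30 each). Gja1, an astrocyte gene, averaged 5.19 ± 0.90 CPM in cytosolic Camk2a and 31.8 ± 20.8 CPM in cytosolic pS6, against 75.9 ± 14.1 CPM in cytosolic Input (SD, n = 30 each). In the membrane fraction Gja1 averaged 171 ± 47.3 CPM in Camk2a and 431 ± 212 CPM in pS6, against 715 ± 98.2 CPM in Input. RNA of this gene was thus lower in the captures but not absent. Gjb6, another astrocyte gene, was lower in Camk2a than in Input, by -3.81 (cytosolic) and -1.97 (membrane) on the log2 scale. In pS6 Gjb6 was near its Input level, at -0.15 and -0.09, so pS6 was not lower for every astrocyte gene. By the numbers in the titles, the first 11 mice were NoCFC, the next 11 were CFC, and mice 23 to 30 held 2 of each group, so training and the range of mouse numbers cannot be told apart in the first 22 mice. Some libraries stood apart. Mice 12 and 19 had the highest sums of 10 astrocyte markers in both pS6 types, mouse 22 had the highest or next highest sum of 4 choroid plexus markers in all 6 types, and its libraries were the least like the others in 3 of the 6 types.

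A single promoter window is shown for each of the 3 targets that rose with sleep deprivation in at least 4 library types, since the most calls fell on these members. Each is the 250 bases before the transcription start in RefSeq, from the strand of the gene on GRCm38.p6: Sgk1 at chr10:21881934-21882183 (plus strand), Tsc22d3 at chrX:140542669-140542918 (minus strand) and Cdkn1a at chr17:29090729-29090978 (plus strand). Capitals mark a match to AGAACA, the arm of the glucocorticoid response element, or to its reverse complement.
Sgk1: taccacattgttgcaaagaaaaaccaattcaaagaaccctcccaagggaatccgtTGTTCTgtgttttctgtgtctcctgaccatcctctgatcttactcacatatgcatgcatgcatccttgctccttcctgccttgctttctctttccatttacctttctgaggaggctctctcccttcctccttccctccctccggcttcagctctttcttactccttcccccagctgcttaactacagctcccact
Tsc22d3: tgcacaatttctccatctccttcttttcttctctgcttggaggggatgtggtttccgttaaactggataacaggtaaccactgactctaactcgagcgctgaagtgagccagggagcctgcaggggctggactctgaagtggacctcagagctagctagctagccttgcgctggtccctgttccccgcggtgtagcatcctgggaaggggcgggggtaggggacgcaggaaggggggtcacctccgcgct
Cdkn1a: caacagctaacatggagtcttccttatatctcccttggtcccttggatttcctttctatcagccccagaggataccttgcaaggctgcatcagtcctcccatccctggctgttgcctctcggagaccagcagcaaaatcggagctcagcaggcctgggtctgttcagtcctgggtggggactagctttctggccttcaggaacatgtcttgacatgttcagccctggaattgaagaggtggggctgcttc

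A window was at hand for 7 of the 9 genes, Zbtb16 and Nr3c1 being the others. The palindromic core of the glucocorticoid response element, searched on both strands as GNACA, any 3 bases and TGTNC, was in 0 of the 7 windows and in 127 of 32851 promoters of the same length (0.387%). The single arm AGAACA, searched on both strands and able to lie inside the core, was in the Sgk1 window alone, starting 195 bases before the transcription start and read there as its reverse complement. It was in 16.1% of all promoters. These matches describe letters in short windows. Other transcription starts of a gene were not searched, and the Tsc22d3 window lies inside the annotated span of its gene.

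On GRCm38 with the GENCODE vM21 annotation, Sgk1 (ENSMUSG00000019970.15) lies at chr10:21882184-21999903, Tsc22d3 (ENSMUSG00000031431.13) at chrX:140539528-140600659 and Cdkn1a (ENSMUSG00000023067.14) at chr17:29090976-29100727. Fkbp5 lies at chr17:28399094-28517527, Zbtb16 at chr9:48654297-48836222, Plin4 at chr17:56100591-56109803 and Hif3a at chr7:17031507-17062427. The receptor genes lie at chr18:39410545-39519421 (Nr3c1) and chr8:76899442-77245012 (Nr3c2). The strand used in counting is not given in the sources used here. Exons of Plin4, Cdkn1a and Nr3c2 overlap a gene on the opposite strand (Hdgfl2, AC167363.2 and Gm10649), so their counts are uncertain.

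Per kilobase of exon, Tsc22d3 and Sgk1 were the most abundant members in cytosolic Input, at 30.9 ± 8.31 and 23.9 ± 10.3 CPM per kilobase (SD, n = 30). On the same scale Nr3c2 was at 17.8 ± 1.38, Zbtb16 at 13.8 ± 1.89, Nr3c1 at 12.6 ± 0.79, Fkbp5 at 10.2 ± 1.65 and Cdkn1a at 2.27 ± 0.80 CPM per kilobase. Hif3a was at 0.49 ± 0.29 and Plin4 at 0.09 ± 0.09 CPM per kilobase. Plin4 had 364 counts in all over the 30 cytosolic Input libraries and 53 in the 30 cytosolic Camk2a libraries, 9 of which held none, so its values are imprecise.

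The receptors were most abundant in the Camk2a capture. Nr3c1 averaged 137 ± 11.7 CPM in cytosolic Camk2a, 97.9 ± 7.26 in membrane Camk2a, 51.2 ± 5.76 in cytosolic pS6, 60.6 ± 6.82 in membrane pS6, 97.1 ± 6.04 in cytosolic Input and 77.7 ± 6.18 CPM in membrane Input (SD, n = 30 each). Nr3c2 averaged 172 ± 13.2, 156 ± 16.8, 126 ± 8.76, 114 ± 11.4, 115 ± 8.92 and 84.4 ± 8.001 CPM in the same order of types. When the types were ranked by mean, 3 neighbouring pairs differed by more than their SDs for Nr3c1 (cytosolic over membrane Camk2a, cytosolic over membrane Input, membrane Input over membrane pS6) and 2 for Nr3c2 (membrane Camk2a over cytosolic pS6, membrane pS6 over membrane Input). For each of the 7 targets, all 5 neighbouring pairs overlapped within 1 SD.

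The neuronal captures were compared with Input to ask which libraries hold these transcripts. A gene was called at an adjusted p under 0.05 and a fold of at least 2, with edgeR's quasi-likelihood test, 30 libraries on each side and Benjamini-Hochberg adjustment over all genes. Of the 9 genes, 3 were lower in Camk2a than in Input in each fraction, Tsc22d3, Plin4 and Hif3a. In all, 16.4% of 16421 genes were called lower in the cytosolic fraction and 16.7% of 16128 in the membrane fraction. Tsc22d3 averaged 71.0 ± 7.49 CPM in cytosolic Camk2a, against 134 ± 36.1 CPM in cytosolic Input (SD, n = 30 each), a log2 fold change of -1.07 ± 0.05 (SE, adjusted p = 2.6e-31, edgeR). In the membrane fraction its log2 fold change was -1.10 ± 0.06. Hif3a averaged 0.50 ± 0.32 CPM in cytosolic Camk2a, against 3.28 ± 1.94 CPM in cytosolic Input, and its log2 fold changes were -2.85 ± 0.15 (cytosolic) and -1.99 ± 0.17 (membrane). Plin4 was lower by -2.68 ± 0.28 and -1.37 ± 0.33 on the log2 scale. Fkbp5, Zbtb16, Nr3c1 and Nr3c2 were on the other side of 0, with log2 fold changes of 0.21, 0.20, 0.32 and 0.40 in the cytosolic fraction and 0.42, 0.60, 0.24 and 0.79 in the membrane fraction. Each had an adjusted p under 0.05 in edgeR and a fold under 2. On the adjusted p alone 8 and 9 of the 9 genes passed, beside 81.8% and 82.6% of all genes, and in either direction at a fold of 2 16.8% and 18.6% of all genes were called (cytosolic, membrane).

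In pS6 libraries, 2 of the 9 genes were called lower than in Input in each fraction, Plin4 and Hif3a, where 8.82% of 17112 genes (cytosolic) and 3.47% of 17101 genes (membrane) were called lower, and 20.2% and 10.7% in either direction. The Plin4 call in the membrane fraction was lost with DESeq2 (-0.91) and with no low-count filter (-0.98), inside a fold of 2. On the adjusted p alone 9 and 7 passed, beside 85.1% and 75.2% of all genes. Hif3a had log2 fold changes of -2.07 ± 0.17 and -1.44 ± 0.20, and Plin4 of -1.39 ± 0.30 and -1.01 ± 0.41 (SE), in the cytosolic and membrane fractions. Unlike in Camk2a, Tsc22d3 was near its Input level in pS6, at 0.18 ± 0.05 and -0.07 ± 0.07. Nr3c1 was at -0.97 ± 0.03 in cytosolic pS6, just inside a fold of 2, and at -0.45 ± 0.03 in membrane pS6, while Nr3c2 was at 0.09 ± 0.03 and 0.36 ± 0.04. Cdkn1a was at 0.56 ± 0.08 and 0.47 ± 0.09. In a bulk library, fewer cells of a type and less RNA per cell cannot be told apart.

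**Figure D1:**
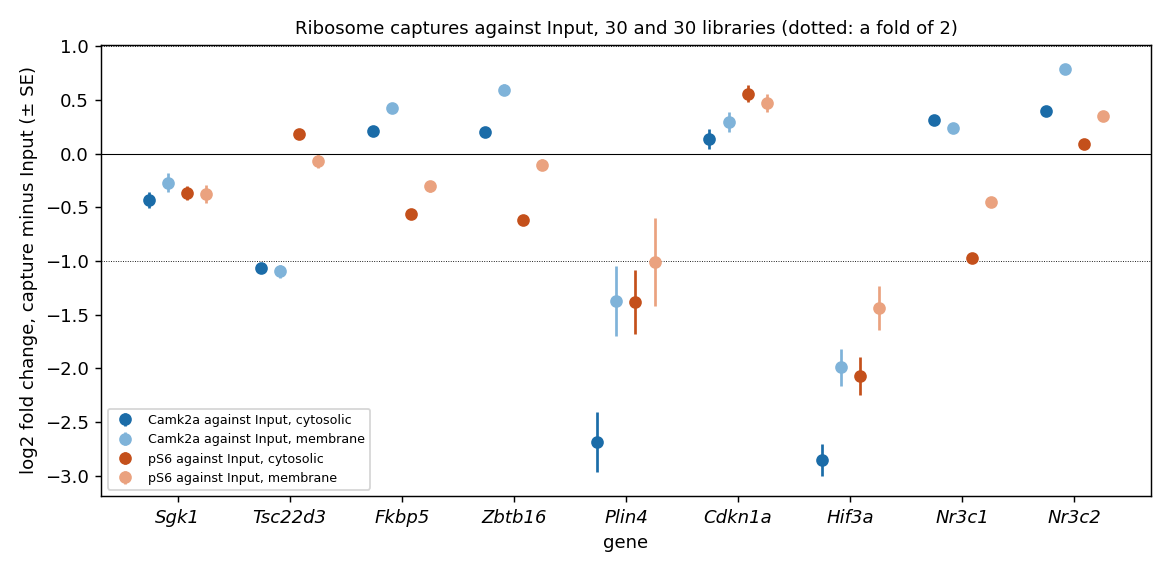
Log2 fold change of each gene in the Camk2a and pS6 captures over Input (y axis, ± SE from edgeR, 30 and 30 libraries), by gene (x axis). Hif3a and Plin4 lie at or below -1 in all 4 comparisons, and Tsc22d3 lies below -1 in both Camk2a comparisons only.

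Sgk1 was the only member called between fractions. It was lower in membrane than in cytosolic libraries by -1.07 ± 0.08 in Input and -1.02 ± 0.07 in pS6 (log2, SE), where 8.91% and 9.9% of all genes were called lower and 30.9% and 35.3% in either direction. In Camk2a it was at -0.88 ± 0.06 and no member was called, whereas 38.1% of all genes were called, 10.1% as lower. There 7 of 8 had an unadjusted p under 0.05 in edgeR, and DESeq2 called 1, Hif3a, at 1.05. The share of all genes called by DESeq2 is not given. On the adjusted p alone 7 of 8 passed in Camk2a, 8 of 9 in pS6 and 7 of 9 in Input, beside 90.1%, 85.3% and 88.7% of all genes. With DESeq2, Sgk1 was at -0.97 in Input and -0.96 in pS6, inside a fold of 2. Fkbp5 was at -0.65, -0.57 and -0.88 in Camk2a, pS6 and Input. Hif3a was at 0.95 ± 0.18 in Camk2a, 0.79 ± 0.25 in pS6 and 0.10 ± 0.14 in Input. These values are relative to all genes: scaling by library totals in place of TMM moved the median of all genes by -0.29 between fractions in Input and pS6 and by -0.27 in Camk2a, and by -0.14 and -0.11 between Camk2a and Input.

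Sleep deprivation was compared with sleep within each library type, averaged over training, at an adjusted p under 0.05. In cytosolic Input 5 of 9 members rose (Sgk1, Tsc22d3, Fkbp5, Cdkn1a and Hif3a), where 2.04% of 15948 genes rose, and in membrane Input 4 of 9 rose (the same genes without Fkbp5), where 1.05% of 15642 genes rose. The median log2 fold change of the 7 targets was 0.55 in cytosolic and 0.78 in membrane Input, with all genes at 7.72e-05 and -0.0038. In the captures, 2 of 8 rose in cytosolic Camk2a (4.13% of all genes), 1 of 8 in membrane Camk2a (2.16%), 5 of 8 in cytosolic pS6 (4.6%) and 3 of 8 in membrane pS6 (1.11%). The share of all genes that changed in either direction was 6.28%, 2.97%, 7.88% and 1.73% in these 4 types, and 3.17% and 1.37% in cytosolic and membrane Input. Plin4 had too few counts to be tested in the captures. Neither receptor rose in any type, and in edgeR no member fell in either Camk2a type (2.15% and 0.802% of all genes), membrane pS6 (0.619%) or cytosolic Input (1.13%). DESeq2 called Nr3c1 lower in membrane pS6.

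**Figure D2:**
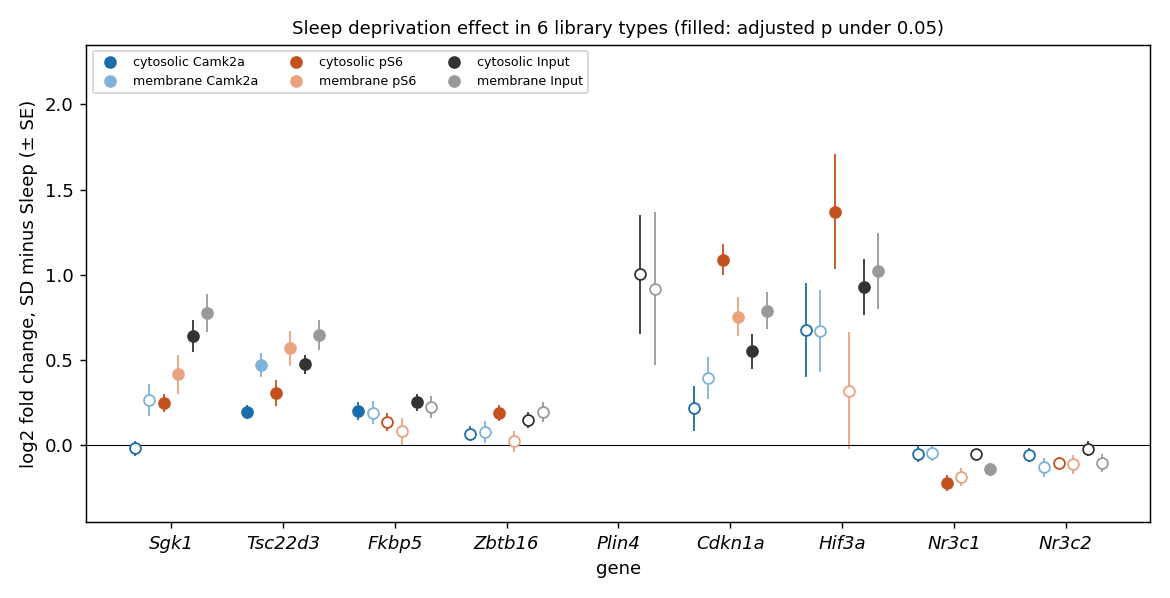
Log2 fold change of SD over Sleep (y axis, ± SE, edgeR, 14 and 16 mice) for each gene (x axis) in 6 library types, with filled symbols for an adjusted p under 0.05. Tsc22d3 is filled in all 6 types, Sgk1 lies near 0 in cytosolic Camk2a and highest in Input, and Cdkn1a and Hif3a lie highest in cytosolic pS6.

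Tsc22d3, the gene of GILZ, was the member called in all 6 types. In cytosolic Input it had 101 to 252 CPM (median 153) in the 14 SD mice, against 91.0 to 140 CPM (median 110) in the 16 Sleep mice. In membrane Input it had 66.4 to 300 CPM (median 140) in SD mice, against 66.7 to 125 CPM (median 79.2) in Sleep mice. The ranges overlapped, with 9 and 8 of the 14 SD mice above every Sleep mouse. The log2 fold changes were 0.48 ± 0.06 (SE, adjusted p = 1.3e-06, edgeR) in cytosolic and 0.65 ± 0.09 (adjusted p = 4.3e-05, edgeR) in membrane Input. They were 0.20 ± 0.04 and 0.47 ± 0.07 in cytosolic and membrane Camk2a, and 0.31 ± 0.07 and 0.57 ± 0.10 in cytosolic and membrane pS6. In pS6 the highest SD value was that of mouse 19, at 298 and 277 CPM, and the highest Sleep value that of mouse 12, at 219 and 198 CPM. These were the mice with the most astrocyte marker RNA in pS6 (2051 and 14010 CPM summed over 10 genes for mouse 19, 1602 and 12300 CPM for mouse 12, cytosolic and membrane). Without both mice the log2 fold changes in pS6 were 0.29 and 0.59, with adjusted p = 3.3e-05 and 3.2e-07 in edgeR.

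Sgk1, the kinase gene, rose in Input and pS6 on the average over training. In cytosolic Input it had 82.0 to 286 CPM (median 133) in SD mice, against 74.8 to 127 CPM (median 87.7) in Sleep mice, with 9 of 14 SD mice above every Sleep mouse. In membrane Input it had 35.8 to 177 CPM (median 59.3), against 33.2 to 55.8 CPM (median 41.8) in Sleep mice. The log2 fold changes were 0.64 ± 0.09 and 0.78 ± 0.11 (SE, adjusted p = 4.9e-05 and 0.00017, edgeR). In pS6 they were 0.25 ± 0.05 and 0.42 ± 0.11, the call in the membrane fraction (adjusted p = 0.047, edgeR) being lost with no low-count filter (0.095) and without mouse 22 (0.072) or mouse 30 (0.087). In cytosolic Camk2a Sgk1 had 82.4 to 106 CPM (median 92.6) in SD mice, against 82.0 to 107 CPM (median 91.7) in Sleep mice. Both groups covered the same range, and the log2 fold change was -0.02 ± 0.04. In membrane Camk2a it was 0.27 ± 0.09 (adjusted p = 0.14, edgeR), and 0.32 without mice 12 and 19, when it was called (adjusted p = 0.014, edgeR).

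Cdkn1a, the gene of p21, rose most in cytosolic pS6. There it had 9.96 to 25.9 CPM (median 18.03) in SD mice, against 6.59 to 12.1 CPM (median 8.23) in Sleep mice, and 11 of 14 SD mice lay above every Sleep mouse. The log2 fold change was 1.09 ± 0.09 (SE, adjusted p = 1.1e-10, edgeR). It was 0.76 ± 0.12 in membrane pS6, 0.55 ± 0.10 in cytosolic Input and 0.79 ± 0.11 in membrane Input, all called, and 0.22 ± 0.13 and 0.40 ± 0.12 in cytosolic and membrane Camk2a, not called by edgeR, though DESeq2 called it in membrane Camk2a (0.39, adjusted p = 0.044). In cytosolic pS6 the markers of inhibitory neurons moved with sleep deprivation too. All 7 rose, where 4.6% of all genes rose. Their sum was 760 to 1010 CPM (median 829.1) in SD mice, against 571 to 775 CPM (median 673) in Sleep mice. In membrane pS6 4 of the 7 rose, where 1.11% of all genes rose. None rose in Camk2a (4.13% and 2.16% of all genes) or Input (2.04% and 1.05%). The part of these cells in the pS6 values was not tested. Gjb6, an astrocyte marker, averaged 28.9 ± 15.1 CPM in SD mice, against 16.4 ± 9.14 CPM in Sleep mice in cytosolic pS6 (SD, n = 14 and 16). Its mean was higher in SD mice in the other library types too. It was 25.7 ± 5.25 against 20.6 ± 4.15 CPM in cytosolic Input and 199 ± 49.8 against 152 ± 28.2 CPM in membrane Input. The sum of all listed astrocyte markers is given by sleep condition for cytosolic Input alone. There it was 1396 to 1643 CPM (median 1513) in SD mice, against 1278 to 1670 CPM (median 1517) in Sleep mice.

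Hif3a was low but rose in 3 types. In cytosolic Input it had 0.89 to 7.49 CPM (median 4.63) in SD mice, against 1.15 to 3.78 CPM (median 2.06) in Sleep mice, a log2 fold change of 0.93 ± 0.16 (SE, adjusted p = 0.00057, edgeR). SD mice spanned the whole Sleep range, and 8 of 14 lay above it. It was 1.02 ± 0.22 in membrane Input and 1.37 ± 0.34 in cytosolic pS6, also called, and 0.32 ± 0.34 in membrane pS6, not called. Neither Camk2a type was called. Within the ranges of mouse numbers, Hif3a was higher in SD by 0.60 to 0.71 in cytosolic and by 0.29 to 1.02 in membrane Camk2a, on mean log2 CPM. Plin4 was at 1.00 ± 0.35 in cytosolic and 0.92 ± 0.45 in membrane Input (adjusted p = 0.12 and 0.46, edgeR), so neither difference passed the test.

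Fkbp5, the co-chaperone gene, rose by a small amount. In cytosolic Input it had 84.8 to 141 CPM (median 105) in SD mice, against 70.8 to 107 CPM (median 86.7) in Sleep mice, and its log2 fold change was 0.25 ± 0.05 (SE, adjusted p = 0.0026, edgeR). In cytosolic Camk2a it had 104 to 168 CPM (median 138), against 92.6 to 139 CPM (median 117), and 0.20 ± 0.05 (adjusted p = 0.019, edgeR). In the other types it was between 0.08 and 0.23, not called; in membrane Input it was called without mouse 22 (adjusted p = 0.042, edgeR). Zbtb16 was called in cytosolic pS6 only, at 0.19 ± 0.05 (adjusted p = 0.0096, edgeR), with 44.2 to 61.8 CPM (median 51.8) in SD mice, against 37.5 to 52.0 CPM (median 46.3) in Sleep mice. It was at 0.15 ± 0.04 in cytosolic Input, where DESeq2 called it (adjusted p = 0.030).

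The glucocorticoid receptor gene itself fell in 2 types. In cytosolic pS6, where 3.28% of genes fell, Nr3c1 had 40.0 to 54.0 CPM (median 45.7) in SD mice, against 48.4 to 65.5 CPM (median 55.0) in Sleep mice, a log2 fold change of -0.22 ± 0.05 (SE, adjusted p = 0.0018, edgeR). In membrane Input, where 0.32% of genes fell, it had 69.0 to 77.2 CPM (median 73.8), against 70.3 to 94.9 CPM (median 81.5), and -0.14 ± 0.04 (adjusted p = 0.046, edgeR). The call in membrane Input was lost with no low-count filter (adjusted p = 0.20), with a term for the range of mouse numbers (0.054) and without mouse 22 (0.052), mouse 30 (0.090) or mice 12 and 19 (0.057). In membrane pS6 it was at -0.18 ± 0.05, not called (adjusted p = 0.061, edgeR), but called by DESeq2 (0.039) and by edgeR with the term for the range of mouse numbers (0.041) or without mouse 30 (0.049). Nr3c2, the mineralocorticoid receptor gene, was between -0.13 and -0.02 in the 6 types and was called in none (edgeR); DESeq2 called it in cytosolic pS6 (-0.11, adjusted p = 0.039).

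Within each range of mouse numbers, Tsc22d3, Cdkn1a and Fkbp5 were higher in SD than in Sleep in all 6 types, on mean log2 CPM. Sgk1 in cytosolic Input was higher by 0.22 in the first 11 mice, by 0.90 in the next 11 and by 0.73 in the last 8. Tsc22d3 there was higher by 0.32, 0.45 and 0.68.

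**Figure D3:**
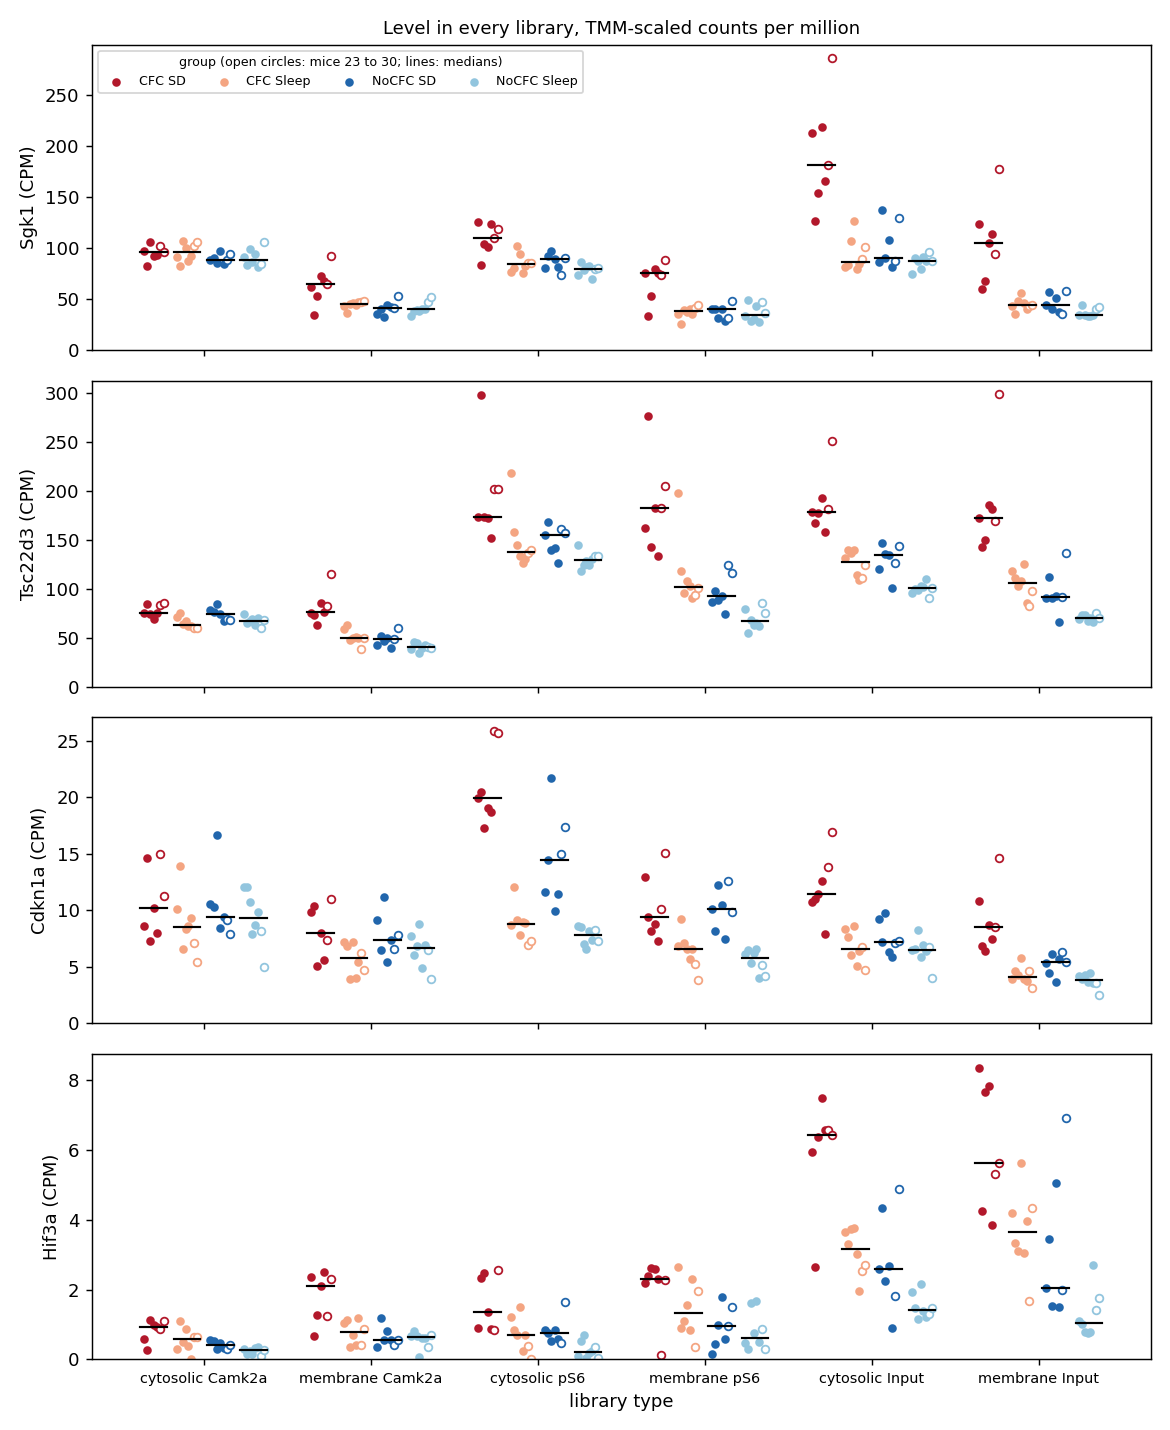
CPM of 4 targets (y axes, from 0) in every library, by library type (x axis) and, within a type, CFC SD, CFC Sleep, NoCFC SD and NoCFC Sleep from left to right, with group medians as lines. In Input the CFC SD medians lie highest for Sgk1 and Tsc22d3, whereas in cytosolic Camk2a the 4 groups of Sgk1 share 1 range.

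The design crosses sleep deprivation with training. The difference between SD and Sleep was larger in the CFC than in the NoCFC arm for Sgk1, though its interaction did not pass the adjusted test. In cytosolic Input Sgk1 had 127 to 286 CPM (median 181) in CFC SD mice, against 79.4 to 127 CPM (median 86.9) in CFC Sleep mice. In NoCFC SD mice it had 82.0 to 137 CPM (median 90.2), against 74.8 to 96.6 CPM (median 87.7) in NoCFC Sleep mice. All 7 CFC SD mice lay above the 8 CFC Sleep mice, the closest pair being 127.0 and 126.8 CPM, whereas in the NoCFC arm the ranges overlapped. The difference in mean log2 CPM was 1.00 in the CFC arm and 0.22 in the NoCFC arm. Sgk1 in membrane Input gave 1.17 and 0.29, with 60.4 to 177 CPM (median 105) in CFC SD mice, against 35.5 to 55.8 CPM (median 44.1) in CFC Sleep mice. Tsc22d3 had no overlap in the CFC arm either, in both Input types, with differences of 0.56 in the CFC and 0.36 in the NoCFC arm (cytosolic) and 0.81 and 0.43 (membrane). Cdkn1a had 0.84 and 0.24 in cytosolic Input, and 1.04 and 0.48 in membrane Input, where the CFC SD mice lay above all CFC Sleep mice. Hif3a had 0.91 and 0.70 in cytosolic Input, but 0.74 in the CFC and 1.16 in the NoCFC arm in membrane Input.

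The interaction of sleep deprivation with training for Sgk1 was 0.78 ± 0.18 in cytosolic and 0.90 ± 0.23 in membrane Input, and 0.86 ± 0.23 in membrane pS6 (log2, SE). None passed adjustment over all genes (adjusted p = 1.0, edgeR). No member was called in any type, by edgeR or DESeq2, and 0.0% of all genes were called by edgeR. At an unadjusted p under 0.05, 2 of 9 members stood in each Input type, 3 of 8 in membrane Camk2a, 1 of 8 in each pS6 type and 0 of 8 in cytosolic Camk2a. Over all genes that share was 2.43% in cytosolic and 2.69% in membrane Input, 4.76% in membrane Camk2a, 4.23% in cytosolic and 3.8% in membrane pS6 and 1.99% in cytosolic Camk2a. For Sgk1 in cytosolic Input the unadjusted p was 0.00018. Cdkn1a was at 0.62 ± 0.21 in cytosolic and 0.58 ± 0.22 in membrane Input, and Fkbp5 at 0.01 ± 0.10 and 0.01 ± 0.13. Without mouse 30 the Sgk1 interaction in cytosolic Input was 0.66. Among CFC mice, SD minus Sleep for Sgk1 in cytosolic Input was 0.90 in mice 12 to 22 and 1.26 within mice 23 to 30. Among NoCFC mice it was 0.22 over the first 11 mice and 0.21 within mice 23 to 30. For Sgk1 in membrane pS6, SD minus Sleep was 0.77 in CFC mice 12 to 22 and 0.93 in CFC mice 23 to 30. In NoCFC mice it was 0.05 over the first 11 and -0.09 within mice 23 to 30. In membrane Camk2a the values in the same order were 0.37 and 0.70 in CFC mice and 0.02 and -0.07 in NoCFC mice.

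**Figure D4:**
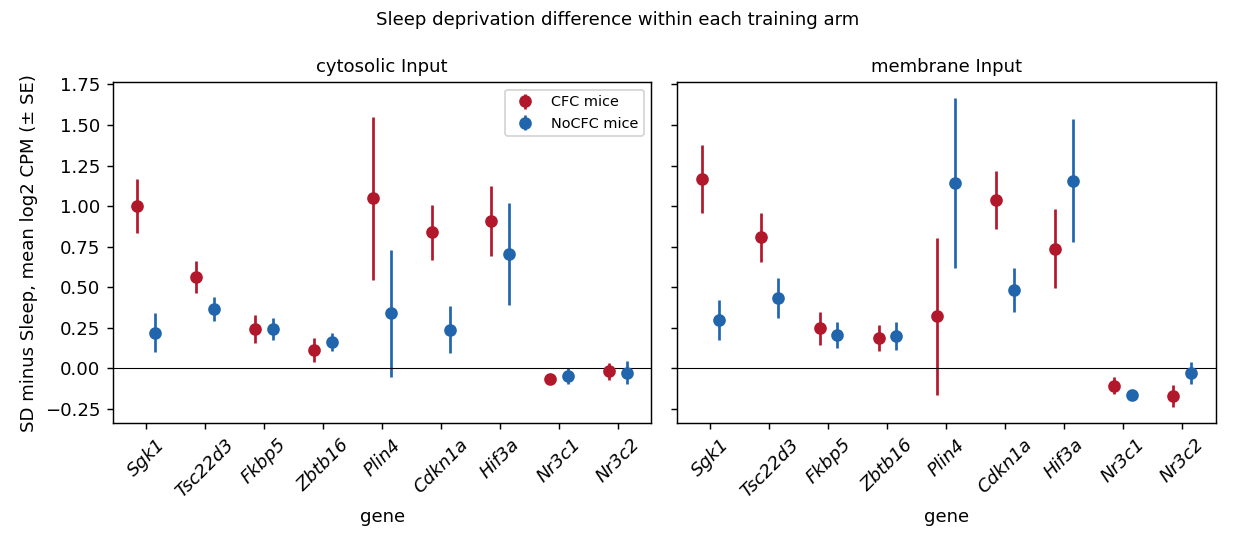
SD minus Sleep in mean log2 CPM (y axis, ± SE of the difference) within the CFC arm (7 and 8 mice) and the NoCFC arm (7 and 8 mice), by gene (x axis), in cytosolic and membrane Input. Sgk1 lies at 1.00 in the CFC arm and 0.22 in the NoCFC arm of cytosolic Input, and Fkbp5 at 0.24 in both.

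Whether sleep deprivation acted alike in a capture and in Input was tested as an interaction. Sgk1 was called in the cytosolic fraction, where its effect in Camk2a was lower than in Input by -0.66 ± 0.10 (log2, SE, adjusted p = 0.00022, edgeR), and 0.0122% of 16421 genes were called. In the membrane fraction no member was called, and 0.0% of 16128 genes. In each fraction 2 of 9 members had an unadjusted p under 0.05 in edgeR, beside 2.95% and 2.97% of all genes. DESeq2 called 1 and 0 members, and its share of all genes is not given. With the mouse as a block, the difference for Sgk1 in the membrane fraction was called too, at -0.49 (adjusted p = 0.00057, edgeR), against -0.51 ± 0.15 and no call without the block. It was then the 1 gene called of all 16128 (0.0062%). Tsc22d3 in cytosolic Camk2a was at -0.28 ± 0.07 without the block and was called with it, at -0.27 (adjusted p = 0.0092, edgeR), among 0.0304% of all genes.

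For pS6 against Input no member was called without the block in either fraction, where 0.672% of 17112 genes (cytosolic) and 0.111% of 17101 genes (membrane) were called. At an unadjusted p under 0.05, 3 and 1 of 9 members stood in edgeR, beside 7.57% and 4.8% of all genes. DESeq2 called 2 and 0 members, and its share of all genes is not given. With the block 3 of 9 were called in the cytosolic fraction, beside 2.27% of all genes (edgeR): Cdkn1a, with a larger effect in pS6 than in Input by 0.52 (adjusted p = 0.0022), Sgk1, with a smaller one by -0.38 (adjusted p = 0.0022), and Nr3c1, at -0.17 (adjusted p = 0.0073). In the membrane fraction Sgk1 was called with the block, at -0.33 (adjusted p = 0.038, edgeR), beside 0.234% of all genes.

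The effect of training was tested in mice 23 to 30, 4 CFC and 4 NoCFC mice in which it does not coincide with the range of mouse numbers. With the low-count filter, edgeR called no member in any of the 6 types. It called 0.0% of all genes in cytosolic Camk2a and both Input types, 0.00613% in cytosolic pS6, 0.0134% in membrane Camk2a and 0.0184% in membrane pS6. At an unadjusted p under 0.05, 7 of 9 members stood in cytosolic Input, 5 of 8 in cytosolic pS6, 4 of 9 in membrane Input, 3 of 8 in membrane Camk2a, 2 of 8 in cytosolic Camk2a and 2 of 9 in membrane pS6, beside 4.24%, 4.73%, 7.05%, 9.71%, 4.48% and 8.35% of all genes. DESeq2 called Tsc22d3 in cytosolic Input (adjusted p = 0.024) and in membrane pS6 (adjusted p = 0.0058). With no low-count filter, edgeR called Sgk1, Tsc22d3, Hif3a and Cdkn1a in cytosolic Input (adjusted p = 8.31e-06, 0.000176, 0.00743 and 0.037). It then also called Tsc22d3 in membrane Camk2a, membrane Input and membrane pS6, and Sgk1 in membrane pS6. The share of all genes is not given for either alternative, so these calls have no baseline. 

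Values by mouse show where the differences lay. In cytosolic Input Tsc22d3 had 182 and 252 CPM in the CFC SD mice, against 127 and 144 CPM in the NoCFC SD mice, and 111 and 125 CPM in the CFC Sleep mice, against 91.0 and 101 CPM in the NoCFC Sleep mice. Every CFC mouse was above every NoCFC mouse of its sleep condition, and the log2 fold change was 0.48 ± 0.10 (SE, adjusted p = 0.61, edgeR). Sgk1 had 181 and 286 CPM in the CFC SD mice, against 87.2 and 129 CPM in the NoCFC SD mice, and 89.4 and 101 CPM in the CFC Sleep mice, against 96.6 and 87.4 CPM in the NoCFC Sleep mice. The training difference in mean log2 CPM was 1.10 among SD mice and 0.05 among Sleep mice, and the fitted value over both was 0.57 ± 0.14. Cdkn1a had 13.8 and 16.9 CPM in the CFC SD mice, against 7.12 and 7.27 CPM in the NoCFC SD mice, and 6.78 and 4.70 CPM in the CFC Sleep mice, against 6.70 and 3.97 CPM in the NoCFC Sleep mice. Its training difference was 1.08 among SD mice and 0.13 among Sleep mice. Hif3a had 6.59 and 6.43 CPM in the CFC SD mice, against 1.83 and 4.90 CPM in the NoCFC SD mice, and 2.54 and 2.72 CPM in the CFC Sleep mice, against 1.30 and 1.47 CPM in the NoCFC Sleep mice. Its CFC mice were above the NoCFC mice in both sleep conditions. Fkbp5 and Zbtb16 were at 0.24 ± 0.08 and 0.30 ± 0.09 (log2, SE), and the receptors Nr3c1 and Nr3c2 differed by -0.02 and -0.01 in mean log2 CPM.

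Over all 30 mice without a term for the range of mouse numbers, 5 members were called for training in cytosolic Input, 6 in membrane Input, 4 in membrane Camk2a and 3 in membrane pS6, where 0.219%, 6.53%, 17% and 16.8% of all genes were called (edgeR). With that term no member was called in any type, and at most 0.0721% of all genes were. The range of mouse numbers and training cannot be told apart in the first of these fits.

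Other genes known to respond to glucocorticoids were counted as a list of 20. The list was chosen with earlier results of these data known, so its counts are a description and not an independent test. In SD against Sleep, 9 of the 19 tested rose in cytosolic Input (median 0.20), beside 2.04% of all genes (median 7.72e-05), and 6 of the 19 in membrane Input (median 0.08), beside 1.05% of all genes (median -0.0038). In the captures 5 of 18 rose in cytosolic Camk2a, 5 of 19 in membrane Camk2a, 6 of 19 in cytosolic pS6 and 3 of 19 in membrane pS6, beside 4.13%, 2.16%, 4.6% and 1.11% of all genes. In membrane pS6 1 of the 19, Cebpd, fell, beside 0.619% of all genes. Errfi1, an inhibitor of the epidermal growth factor receptor, rose by 0.25 ± 0.04 in cytosolic Input, Bcl6, a transcriptional repressor, by 0.31 ± 0.05 and Klf15, a transcription factor of energy metabolism, by 0.23 ± 0.04 (log2, SE; adjusted p = 0.00013, 0.00013 and 0.00069, edgeR). Gjb6, a connexin gene of this list, is an astrocyte marker as well.

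Of 16 receptor partners and hormone enzymes, 0 of 15 tested were called with sleep deprivation in either Input type by edgeR or DESeq2, where edgeR called 3.17% (cytosolic) and 1.37% (membrane) of all genes. At an unadjusted p under 0.05, 6 and 2 of the 15 stood in edgeR, beside 14.5% and 10.2% of all genes. Stip1, a co-chaperone chosen here after its value was seen, rose by 0.15 ± 0.03 in cytosolic Camk2a (adjusted p = 0.0054, edgeR) and was the 1 member of the list that edgeR called in any type. In cytosolic Input Stip1 was at 0.09 ± 0.03, the coactivator gene Ep300 at 0.14 ± 0.05 and the coactivator gene Ncoa3 at 0.12 ± 0.05, with adjusted p between 0.17 and 0.22 in edgeR. Fkbp4, the co-chaperone that counters Fkbp5, averaged 154 ± 11.5 CPM in SD mice, against 145 ± 12.5 CPM in Sleep mice in cytosolic Input (SD, n = 14 and 16), a difference of 0.09 ± 0.04 that was not called. Hsd11b1, whose enzyme regenerates active corticosterone, averaged 11.5 ± 1.44 CPM in SD mice, against 12.3 ± 2.33 CPM in Sleep mice there. Like Tsc22d3, it was lower in Camk2a than in Input, at -1.27 ± 0.06 (cytosolic) and -1.15 ± 0.04 (membrane) on the log2 scale, both called. Hsd11b2, whose enzyme inactivates corticosterone, averaged 0.03 ± 0.04 CPM in cytosolic Input (SD, n = 30).

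The genes most like each member were sought among 9536 genes by Pearson's r over the 24 means of library type and group, which share libraries and depth. They were Nkd2 (0.90) for Sgk1, Myl12a (0.91) for Tsc22d3, Rnf19a (0.98) for Fkbp5, Prickle2 (0.97) for Zbtb16, Ralgds (0.79) for Plin4, Fos (0.87) for Cdkn1a, Pnpla2 (0.91) for Hif3a, Anapc2 (0.99) for Nr3c1 and Rtf1 (0.99) for Nr3c2. Fos is an immediate early gene of neuronal activity. Next in rank were Rrp8, Smim3, Nup50, Fxr1, Pnpla2, Nfil3, Wdfy2, Exoc4 and Mdh2 in the same order of members. Among the members, Plin4 and Hif3a were the most alike pair, at 0.90, and Zbtb16 and Nr3c1 were at 0.84, while Sgk1 and Tsc22d3 were at 0.57.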

How the data were processed

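Per the labels, cDNA libraries were made with the SMART-seq v4 kit. The submitters' processing notes name GRCm38.p6, STAR 2.6.1a, featureCounts without a version and MultiQC 1.6a0. The deposited values are whole-number counts per gene with no normalization by the authors, with totals from 11980405 to 26953695; depth limits the precision of low genes, above all Plin4 and Hif3a. No molecular identifiers were counted, so counts are not numbers of molecules. Of 54429 symbols, 98.8% were found in GENCODE vM21.

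Each comparison was fitted with edgeR 4.0.16 (R 4.3.3; filterByExpr, TMM, robust quasi-likelihood F-test) on all genes, adjusted by Benjamini-Hochberg, at a threshold of 0.05. Capture and fraction comparisons also required a fold of 2. Log2 CPM used a prior count of 2. Standard errors are the log2 fold change divided by the square root of F. Alternatives were DESeq2 1.42.0, no low-count filter, a term for the range of mouse numbers, the mouse as a block, no fold threshold and leaving out mice. Some of the fits were run on simulated data in which every library was drawn independently. Those runs could not check the fits that treated libraries of the same mouse as unpaired.

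A shared title number was read as a shared mouse, because per the labels' protocols Input and captures were drawn from the same tissue lysate; no label states it outright. After removal of group means, their correlation had medians from 0.14 to 0.25 over 7 pairs of types, against -0.02 to -0.01 for different mice. Within a library type, p-values measure the spread between mice. The main fits that set captures or fractions against each other treated the 30 and 30 libraries as unpaired, though each mouse gave a library to both sides. Their p-values therefore do not measure the spread between mice, and the mouse as a block is the paired alternative. Libraries of a group differed by at least 3.01 in chi-square per degree of freedom, so none was a copy.

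The members, lists, tests and the rule for named genes were chosen with earlier results of these data known. The rule names the 9 members, from each list the 3 genes with the smallest adjusted p for sleep deprivation in cytosolic Input, besides Hsd11b1, Hsd11b2 and Fkbp4, and the 2 genes most like each member at a mean log2 CPM of at least 3.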

Additional observations from a re-analysis of the deposited data

Results flagged for a closer look

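A mouse far from the rest of its group was found in 18 of 204 sets of 7 or 8 values (gap to the nearest mouse over the range, against Dixon's critical value at 95%; chance flags about 1 in 20). Tsc22d3 accounted for 6 of them. Highest and lowest below mean within the mouse's own training and sleep group of that library type. Mouse 30 (CFC SD) was highest for it in membrane Camk2a (115.5 CPM), cytosolic Input (251.6) and membrane Input (299.5). Mouse 19 (CFC SD) was highest in cytosolic pS6 (298.2), and mouse 12 (CFC Sleep) in cytosolic (218.5) and membrane pS6 (198.1).

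Among CFC Sleep mice, mouse 13 was lowest for Sgk1 in membrane Camk2a (36.87 CPM) and membrane pS6 (25.94) and for Fkbp5 in membrane Camk2a (58.91). In the same group it was highest for Cdkn1a in cytosolic pS6 (12.1). Zbtb16 was highest in mouse 20 in membrane Camk2a (112.3, CFC SD) and in mouse 25 in membrane pS6 (65.5, CFC Sleep). Cdkn1a was highest in mouse 9 in cytosolic Camk2a (16.65, NoCFC SD) and lowest in mouse 24 in membrane Input (2.468, NoCFC Sleep).

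Hif3a was lowest in mouse 29 in membrane pS6 (0.1187 CPM) and in mouse 19 in cytosolic Input (2.66), both CFC SD, and highest in mouse 28 in cytosolic pS6 (1.658, NoCFC SD). Among NoCFC Sleep mice, Plin4 was highest in mouse 2 in membrane Input (0.5264). The effect of sleep deprivation on Sgk1 differed between cytosolic Camk2a and cytosolic Input by -0.6609 on the log2 scale in the test of that difference.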

How the results depend on the processing

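No called value changed sign under any alternative. Counts below are of the 9 genes, with edgeR unless stated. For training in mice 23 to 30, where 0 were called in each type, DESeq2 called 1 in cytosolic Input and 1 in membrane pS6. With no low-count filter 4, 1, 1 and 2 were called in cytosolic Input, membrane Camk2a, membrane Input and membrane pS6. The share of all genes is not given for DESeq2, for no filter or for fits that leave out mice, so those counts have no baseline beside them. Over all 30 mice with no term for the range of mouse numbers 5, 4, 6 and 3 were called, beside 0.219%, 17%, 6.53% and 16.8% of all genes. Leaving out 1 of mice 23 to 30 leaves 1 mouse in its group, so only effects are given. The Sgk1 log2 fold change was then 0.38 to 0.73 in cytosolic Input and 0.50 to 0.96 in membrane Input. With the adjusted p alone, 8 and 9 were called for Camk2a against Input (cytosolic, membrane), 9 and 7 for pS6 against Input, and 7, 8 and 7 for membrane against cytosolic in Camk2a, pS6 and Input. DESeq2 called 1, 0 and 0 in these 3 fraction comparisons, no filter 1 in Camk2a and 0 in Input, and both 1 for pS6 against Input in the membrane fraction. With the mouse as a replicate block, the difference in the sleep deprivation effect between Camk2a and Input was called for 2 (cytosolic) and 1 (membrane) genes and between pS6 and Input for 3 and 1; DESeq2 called 2 for cytosolic pS6. The block changed no other call. For sleep deprivation in membrane Camk2a DESeq2 called 2, as did the fit without mice 12 and 19, an alternative chosen after seeing the data, like those without mouse 22 or mouse 30. The cause of these changes was not tested. Depth limits Plin4 and Hif3a most.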
